A study of Bombyx mori with 4 samples.

Results

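Protein kinases, protein phosphatases and the proteins that work with them were compared between the testis of op and wild-type silkworm (Bombyx mori) larvae. Members were the probes whose human homolog, in the study's table that pairs array probes with human genes, is described with signaling terms such as protein kinase, mitogen-activated, protein phosphatase, tyrosine phosphatase, casein kinase, G protein or activation protein, leaving out descriptions with mitochondrial, cyclin, heat shock or translation. In the 1999 rows of that table used here, the rule found 47 probes on 24 expressed sequence tags (ESTs, partial cDNA sequences), named after 19 human genes, of 43803 probes on the array. The table is longer, and the rest of it was not used here, so that the members are not complete. The descriptions chose them, and their measured levels did not enter the rule, though earlier results of these data were known when it was set. No row used here carried the name of p38, of apoptosis signal-regulating kinase ASK1, or of MKK3 or MKK6, the kinases that link these 2 (0 of 1999 rows), which says nothing of the rows not used. The part of the mitogen-activated protein kinase (MAPK) system that was found was therefore MAP2K1 and MAP4K3. The RefSeq table of the silkworm lists genes named P38mapk, Erk, Mek and ask1, and the ESTs of the array were not matched to them here.

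Both genotypes came from the strain o751, and total RNA was taken from the testis of larvae on day 3 of the fifth instar, reared on mulberry leaves. The op mutant has a translucent skin as a larva and infertile males, and the study gives its causal gene as not known. Each genotype had 2 arrays, numbered replicate 1 and 2, and the 4 arrays shared 1 slide. The labels do not say whether the replicates came from separate animals, so the p-values measure only the spread between these samples, which may be technical.

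A protein kinase attaches phosphate to another protein, and a protein phosphatase takes it off again. In a MAPK cascade, kinases act in a row, each switching on the next by phosphorylation, so that a stimulus at the membrane reaches targets in the nucleus. Heterotrimeric G proteins pass the signal of membrane receptors inward, and 14-3-3 proteins bind other proteins at phosphorylated serine or threonine. In animal testes, phosphatases of the PP1 and PP2A families and MAPKs are known for roles in meiosis and sperm formation. All these roles are known from humans and other model animals, and the silkworm proteins carry the names by homology alone.

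Each array's processed signals were put on the log2 scale and shifted by their 75th percentile, so that a normalized signal of 0 is the level of that percentile. Levels of different probes cannot be set against each other, because each 60-mer probe binds with its own efficiency. Tests were limited to the 30376 probes that both arrays of op, of wild type or of each showed well above background. Per array, 67.8% to 72.3% of probes reached that level, and 0 spots were saturated. The op replicates were the less alike, with an SD of their log2 difference over all tested probes of 0.69 beside 0.36 for the wild-type replicates. Troponin T and tropomyosin probes, which mark muscle, stood out between the genotypes, with all 4 tested of 5 probes higher in op by 1.76 to 2.41 on the log2 scale and an unadjusted p under 0.05, but none past an adjusted p of 0.05. Their summed level, in units of the 75th percentile of the array, was 3.96 to 5.35 in op and 0.726 to 2.17 in wild type. In this and the other sums bright probes count most, so the sums compare genotypes and not lists. The wild-type replicates were far apart on the troponin T probe Ka00556_756, which read -1.51 and 0.068, against 0.91 and 1.27 in op. The tropomyosin probe Ka01810_247 likewise read -3.63 and -1.88 in wild type, against -0.63 and -0.056 in op. Probes of collagen IV, laminin and nidogen, which mark the sheath and basement membrane, summed to 5.20 to 5.54 in op and 4.21 to 4.82 in wild type, and 5 of 7 were higher in op at an unadjusted p under 0.05 (0 after adjustment). Their log2 differences ran from 0.062 to 3.09 with a median of 1.36. The sum is dominated by the LAMA4 probe Ka01183_475, with a difference of 0.097, while the NID1 probes had 3.09 and 3.08 and the collagen IV probes 0.96 to 1.65. Germ line probes of PIWIL4 and NANOS3 were well above background on all 4 arrays and summed to 4.69 to 4.76 in op and 5.65 to 5.85 in wild type. Of these 4 probes, 0 had an unadjusted p under 0.05. The PIWIL4 probes had log2 differences of -0.35 and -0.29. Those of NANOS3 had -0.086 and 0.0082, and on both the genotypes overlapped. As a background for all these lists, 10.6% of all tested probes were higher and 8.04% lower in op at an unadjusted p under 0.05. The part of these cell type markers in the values below was not tested. In such whole-organ samples, fewer cells of a type and less RNA per cell cannot be told apart.

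Of the 47 probes, 44 were tested, on 23 ESTs named after 18 genes, and 42 of them stood well above background on every array. The 3 others were not tested. The probe Ka00149_33 of PPP1CA was not well above background on any array, and Ka00858_489 of YWHAZ was so on wild type replicate 2 alone. No fold is given for these probes. Among the tested probes, 1 of 2 op arrays showed PPP1CA Ka00149_73 well above background, and 1 of 2 wild-type arrays showed YWHAZ Ka00858_467 so.

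No member passed an adjusted p of 0.05 in limma with Benjamini-Hochberg adjustment over all tested probes (0 of 44), where 0.316% of all tested probes did. The smallest adjusted p of a member was 0.137. At an unadjusted p under 0.05 there were 11 members, 6 higher and 5 lower in op, which is 25.0% of the 44, beside 18.7% of all tested probes, 10.6% of them higher and 8.04% lower. This count was 0 without wild type replicate 1 and 0 without wild type replicate 2, and was 14 without op replicate 1 and 20 without op replicate 2. In the same fits, the share of all tested probes was 7.80%, 6.99%, 29.7% and 33.4%, so that the array as a whole moved in the same way. The arrays of the genotypes did not overlap on 31 members, 14 with op above and 17 with op below, where they did not overlap on 53.7% of all tested probes. The members' differences, op minus wild type, ran from -0.71 to 0.73 on the log2 scale with a median of -0.054, where the median over all tested probes was 0.031. None lay beyond 1 in either direction, while 7.52% of all tested probes did. The smallest difference called among all probes was 1.74 in size, so that every member lay below the size at which these 4 arrays gave a call. The 95% interval of a member's difference reached from 0.39 to 1.11 to each side, with a median of 0.45.

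**Figure D1:**
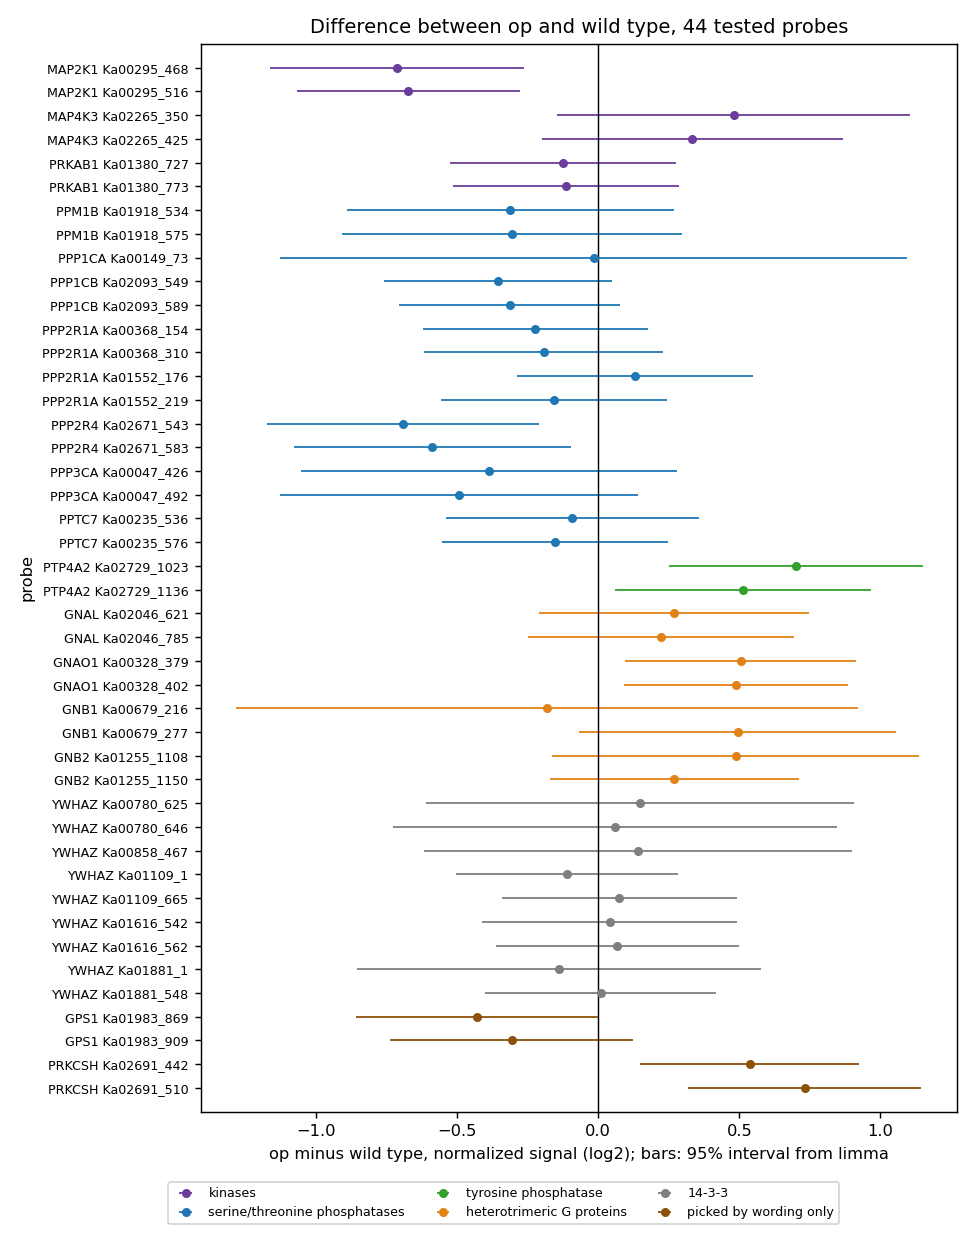
Difference between op and wild type in normalized signal (log2, horizontal axis) for each of the 44 tested probes, colored by role, with bars for the 95% interval from limma. The points run from -0.71 to 0.73, and the intervals of 11 probes lie to one side of 0.

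**Figure D2:**
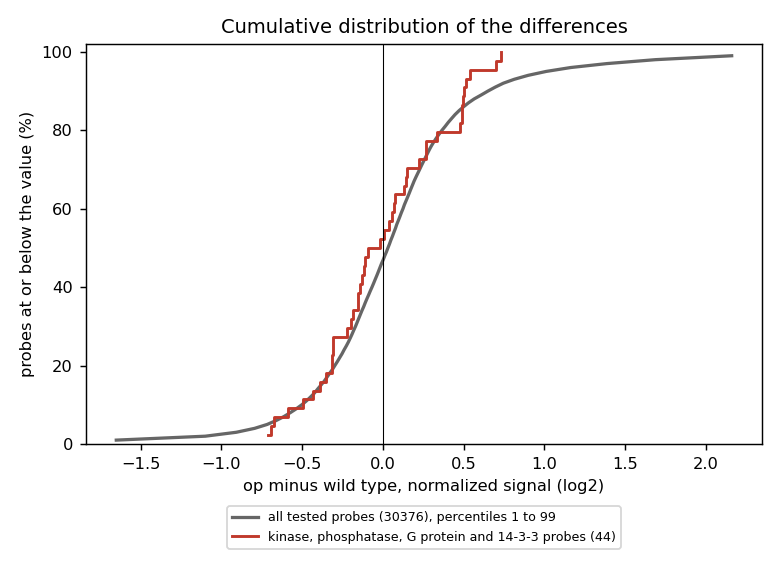
Share of probes (vertical axis, percent) at or below each log2 difference between op and wild type (horizontal axis), as a red stepped line for the 44 tested members and a grey line for the 30376 tested probes between their 1st and 99th percentiles. The red line ends at 0.73 on the right, while the grey line has tails beyond 1 on both sides.

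The kinases were represented by 2 members of MAPK cascades and by a subunit of the AMP-activated kinase. MAP2K1 is homologous to the human kinase MEK1, which phosphorylates and switches on the MAPK ERK. Its probe Ka00295_468 read -1.32 on op replicate 1 and -1.06 on op replicate 2, against -0.47 and -0.48 in the same order in wild type. The second probe of the EST, Ka00295_516, read -0.79 and -0.72 in op, against -0.059 and -0.10 in wild type. On both probes each op array lay below each wild-type array, and the gap between genotypes was wider than the gap between replicates. The log2 difference was -0.71 for Ka00295_468 (SE 0.17, n = 2 per genotype), or 0.610 of the wild-type level, with a limma adjusted p of 0.155 and an unadjusted p of 0.0105 in the limma fit. For Ka00295_516 it was -0.67 (SE 0.15), or 0.627 of the wild-type level, with a limma adjusted p of 0.143. Without op replicate 2, which left 1 op array, the differences were -0.84 for Ka00295_468 and -0.71 for Ka00295_516. Without op replicate 1 they were -0.58 and -0.64. Without wild type replicate 1 they were -0.71 and -0.65, and without wild type replicate 2 they were -0.72 and -0.69.

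MAP4K3 belongs to the kinases at the upper end of MAPK cascades, which in human cells act above the stress kinase JNK. Its probe Ka02265_350 read -4.74 and -4.27 in op, against -4.84 and -5.13 in wild type, and Ka02265_425 read -4.21 and -3.85 in op, against -4.47 and -4.26 in wild type. These are low signals, since the lowest probe well above background lay at -6.30 to -5.62, depending on the array. The op arrays lay above the wild-type arrays on both probes, but the lower op array came within a short distance of the higher wild-type array on each. The log2 differences were 0.48 (SE 0.24) and 0.33 (SE 0.20), and the limma adjusted p was 0.359 and 0.439. Their 95% intervals ran from -0.15 to 1.11 and from -0.20 to 0.87. Without op replicate 2 the differences were 0.24 and 0.15, without op replicate 1 they were 0.71 and 0.515, and with normexp the first was 0.24. MAP4K3 and MAP2K1 thus had differences of opposite sign, and neither passed the adjusted threshold. The difference between them was not tested, since they are different probes. PRKAB1, a regulatory subunit of the AMP-activated kinase that senses low cellular energy, had log2 differences of -0.13 and -0.11 on its 2 probes, with both op arrays below both wild-type arrays.

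**Figure D3:**
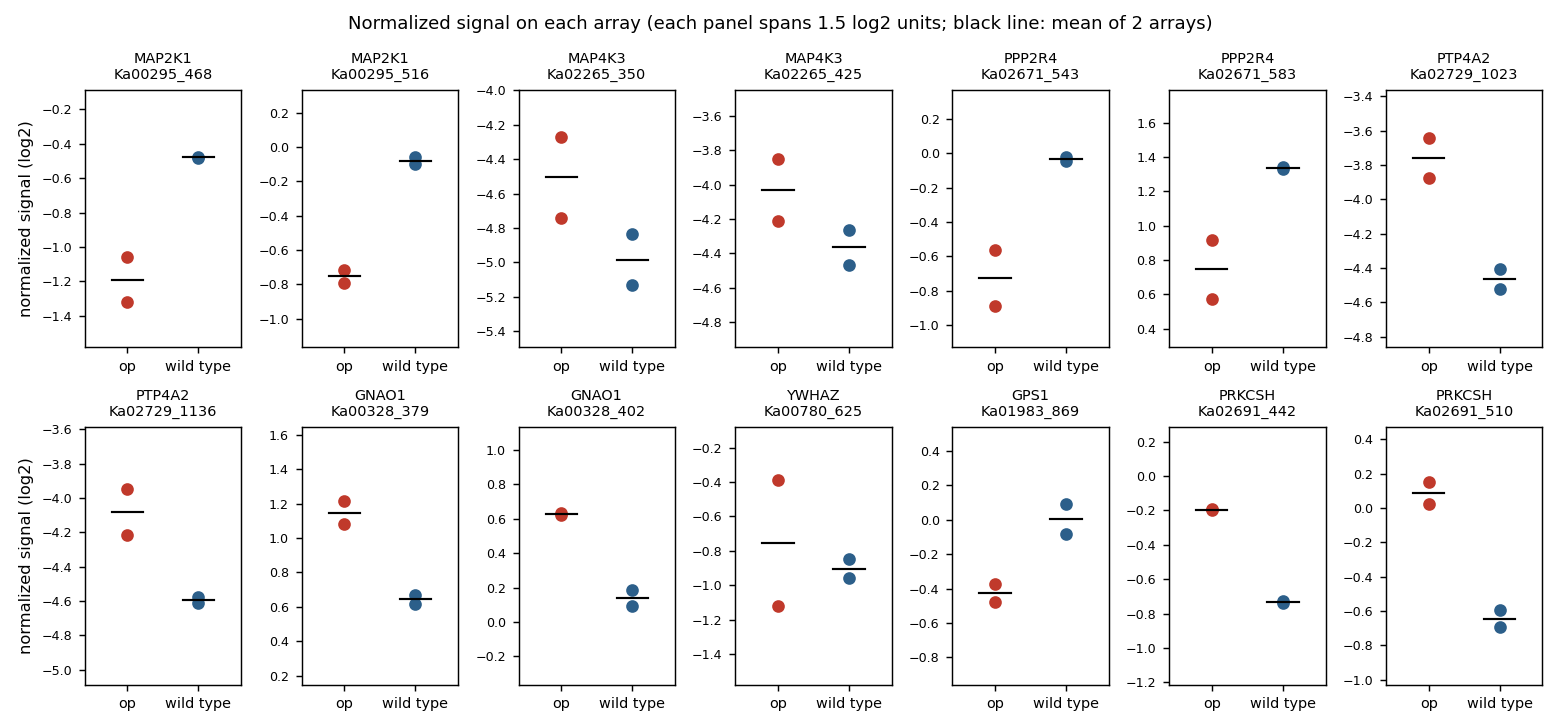
Normalized signal (log2, vertical axis) of 14 probes on each of the 4 arrays, one panel per probe, with op arrays in red, wild-type arrays in blue and the mean of 2 arrays as a black line. Every panel spans 1.5 log2 units, so that the gap between genotypes can be read against the gap between replicates: in the YWHAZ panel the op arrays lie on both sides of the wild-type arrays.

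The serine and threonine phosphatases were the largest group, with 16 probes of 7 genes, of which 15 were tested. Of these, 14 had a difference below 0 and 1 above 0, with a median of -0.31 and a range from -0.69 to 0.13, and 10 had both op arrays below both wild-type arrays, which 24.9% of all tested probes had. Over all 30376 tested probes, 14217 had a difference below 0. Of the 15 phosphatase probes, only 2 (13.3%) had an unadjusted p under 0.05, both lower in op, and 0 passed after adjustment. At that unadjusted threshold were 18.7% of all tested probes, with 8.04% lower in op. Probes of the same EST or gene are not independent, so that the 14 probes below 0 stand for 7 genes.

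Both probes with an unadjusted p under 0.05 belonged to PPP2R4, also known as PTPA, which activates the phosphatase PP2A. Ka02671_543 read -0.89 and -0.56 in op, against -0.023 and -0.045 in wild type. Ka02671_583 read 0.58 and 0.92 in op, against 1.34 and 1.33 in wild type. The wild-type arrays nearly coincided, and the op arrays lay below them and farther apart. The log2 differences were -0.69 (SE 0.18) and -0.59 (SE 0.19), or 0.619 and 0.665 of the wild-type level, with limma adjusted p-values of 0.177 and 0.218. Without op replicate 2, which left 1 op array, the differences were -0.85 for Ka02671_543 and -0.76 for Ka02671_583. Without wild type replicate 1, they were -0.68 and -0.58.

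PPP2R1A is homologous to the scaffold subunit that holds PP2A together, and 2 ESTs carried this name. The 2 probes of Ka00368 had log2 differences of -0.22 and -0.19, with op below wild type on all arrays, while those of Ka01552 were 0.13 and -0.16. PPP3CA, the catalytic subunit of the calcium-activated phosphatase calcineurin, had -0.39 and -0.49 on its probes. The op replicates of PPP3CA were 0.58 and 0.51 apart, and its limma adjusted p-values were 0.467 and 0.354. PPP1CB, a catalytic subunit of PP1, had -0.35 and -0.31, and here the replicates of each genotype were close, with op below wild type on both probes and limma adjusted p-values of 0.309 and 0.342. The log2 difference of PPP1CA, another catalytic subunit of PP1, was -0.016 on its tested probe, with a 95% interval from -1.13 to 1.10. Its signal was near background, and the op replicates were 1.16 apart. PPM1B, a phosphatase of the magnesium-dependent PP2C family, had -0.31 on both probes. Its op replicates were 0.49 apart on each, and over the alternatives its differences ran from -0.56 to -0.069 and from -0.55 to -0.059. PPTC7, of the same family, had -0.092 and -0.15.

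The tyrosine phosphatase group held PTP4A2, a small phosphatase anchored to membranes. Its probe Ka02729_1023 read -3.88 and -3.65 in op, against -4.41 and -4.52 in wild type, and Ka02729_1136 read -4.21 and -3.95 in op, against -4.61 and -4.58 in wild type. Both op arrays lay above both wild-type arrays on each probe, which 28.8% of all tested probes did. The log2 differences were 0.70 (SE 0.17) and 0.51 (SE 0.17), or 1.63-fold and 1.43-fold, with limma adjusted p-values of 0.158 and 0.236. Without op replicate 1 the log2 differences were 0.82 and 0.65, and without op replicate 2 they were 0.59 and 0.38. Without wild type replicate 1 they were 0.76 and 0.50, and without wild type replicate 2 they were 0.64 and 0.53. Each of these fits left 1 array in a genotype. The signals of both probes were low, beside -6.30 to -5.62 for the lowest probe well above background on each array. With normexp background correction the log2 differences were 0.34 and 0.31.

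The heterotrimeric G proteins were 8 probes of 4 genes, all tested. Of these, 7 had a difference above 0, each with both op arrays above both wild-type arrays, as on 28.8% of all tested probes, and the group's median was 0.38. Over all 30376 tested probes, 16159 had a difference above 0. Probes of the same EST or gene are not independent, so that these 8 stand for 4 genes. At an unadjusted p under 0.05 there were 2 of 8, both higher in op, where 10.6% of all tested probes were higher at that threshold, and 0 passed after adjustment. These 2 were the probes of GNAO1, homologous to the alpha subunit Go, which is abundant in neurons. Ka00328_379 read 1.08 and 1.22 in op, against 0.67 and 0.62 in wild type, and Ka00328_402 read 0.62 and 0.64 in op, against 0.19 and 0.093 in wild type. Replicates were close in both genotypes, and the genotypes did not overlap. The log2 differences were 0.50 (SE 0.15) and 0.49 (SE 0.15), or 1.42-fold and 1.40-fold, with limma adjusted p-values of 0.211 and 0.212. The 2 probes have ID numbers 23 apart and may overlap on the EST, which was not tested.

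GNAL, homologous to an alpha subunit that stimulates adenylyl cyclase, had log2 differences of 0.27 and 0.22. GNB2 is homologous to a beta subunit, which forms a unit with gamma and binds the alpha subunit at rest. Its 2 probes had 0.49 and 0.27, with op above wild type on both. Another beta subunit, GNB1, is given in full because its 2 probes disagreed more than those of any other EST among the members, a choice made with the values known. Ka00679_277 read -4.40 and -4.07 in op, against -4.57 and -4.89 in wild type, which is a log2 difference of 0.49, while Ka00679_216 read -3.88 and -4.43 in op, against -3.45 and -4.49 in wild type, which is a difference of -0.18. On the latter probe the wild-type replicates were 1.04 apart and spanned both op arrays. No direction can be given for GNB1.

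The 14-3-3 probes were the second largest group, with 10 probes on 5 ESTs, all named after human YWHAZ, the zeta form. The 9 tested probes had log2 differences from -0.14 to 0.15 with a median of 0.058, and 0 had an unadjusted p under 0.05. Their limma adjusted p-values ran from 0.714 to 0.981. On 8 of the 9 the genotypes overlapped. The probes with the narrowest intervals, Ka01109_1 and Ka01881_548, had 95% intervals from -0.50 to 0.28 and from -0.40 to 0.42. True differences within these bounds were thus not excluded. The probe with the largest difference was Ka00780_625, which read -0.39 and -1.12 in op, against -0.85 and -0.96 in wild type. The wild-type arrays lay between the op arrays, and the difference of 0.15 (SE 0.29, limma adjusted p = 0.806) turned to -0.22 without op replicate 1. The other probe of this EST, Ka00780_646, showed the same spread, with op replicates 0.78 apart and a difference of 0.058. Whether transcripts of related 14-3-3 copies bind the same probe was not tested, since no probe sequences were used here.

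Both GPS1 and PRKCSH were found through the wording of their descriptions and are neither kinases nor phosphatases. GPS1 is homologous to a subunit of the COP9 signalosome, which controls ubiquitin ligases. Its probe Ka01983_869 read -0.48 and -0.37 in op, against 0.094 and -0.084 in wild type, which is a log2 difference of -0.43 (SE 0.16, limma adjusted p = 0.267). The second probe had -0.31, and op lay below wild type on both. PRKCSH is homologous to the beta subunit of glucosidase II, which trims sugars of proteins in the endoplasmic reticulum. Ka02691_442 read -0.20 and -0.19 in op, against -0.74 and -0.73 in wild type, and Ka02691_510 read 0.15 and 0.025 in op, against -0.59 and -0.70 in wild type. The replicates of Ka02691_442 nearly coincided in both genotypes. The log2 differences were 0.54 (SE 0.15) and 0.73 (SE 0.16), or 1.45-fold and 1.66-fold, and the latter was the largest of all members. Their limma adjusted p-values were 0.186 and 0.137. These 4 probes held 3 of the 11 members with an unadjusted p under 0.05. The other 8 were in the kinase, phosphatase and G protein groups, and 2 of those 8 were of PPP2R4, an activator of PP2A.

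Most ESTs carried 2 probes, which gave a second reading of the same transcript on the same arrays. Over the 21 ESTs with both probes tested, 17 pairs had differences of the same sign, and 4 had opposite signs. The gap between the 2 differences had a median of 0.10 and a maximum of 0.68, in GNB1. Across these pairs Pearson's r was 0.876 and Spearman's rho 0.869, as a description of probes that share RNA and arrays. The ID numbers of 12 pairs were less than 60 apart, so that these probes may overlap, if the number is a position on the EST, which is an assumption. The 4 pairs with opposite signs were those of GNB1, of PPP2R1A on Ka01552 and of 2 ESTs of YWHAZ.

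**Figure D4:**
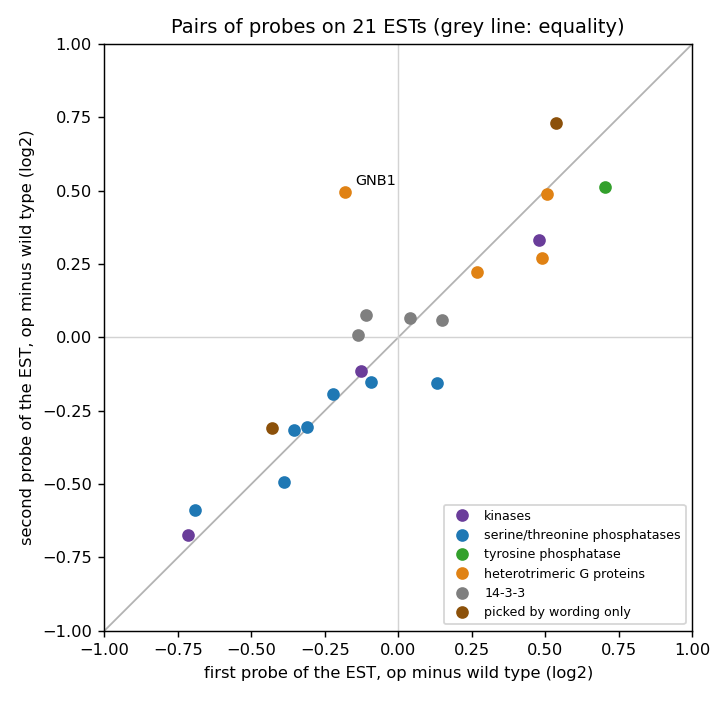
Log2 difference between op and wild type of the 2 probes of each of 21 ESTs, first probe on the horizontal and second on the vertical axis, colored by role, with equality as a grey line. Points lie along the line except GNB1, whose probes read -0.18 and 0.49.

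The spread between replicates was also described for the members themselves. The log2 difference between replicates had an SD of 0.36 in op and 0.24 in wild type over the 44 tested probes, and its median size was 0.21 in op and 0.10 in wild type. Over all tested probes these medians were 0.30 and 0.14. The op replicates were more than 0.5 apart on 7 members, and the wild-type replicates on 3. Beyond 1 apart were PPP1CA Ka00149_73 in op and GNB1 Ka00679_216 in wild type.

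**Figure D5:**
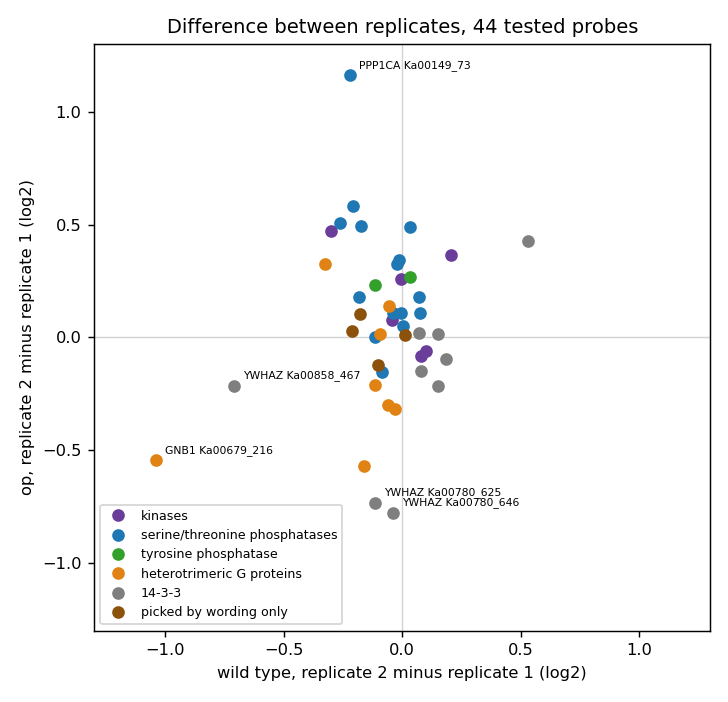
Replicate 2 minus replicate 1 in normalized signal (log2) in wild type (horizontal axis) and op (vertical axis) for the 44 tested probes, colored by role. Most points lie within 0.5 of 0 on both axes, and PPP1CA Ka00149_73 and GNB1 Ka00679_216 lie farthest out.

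Other signaling genes were set beside the members from a list of 19 genes that the rule did not take in, such as small GTPases, other kinases and phosphatases, and inhibitors of kinases. All 40 of their probes were tested, 0 passed an adjusted p of 0.05 in limma, and 8 (20.0%) had an unadjusted p under 0.05, 2 higher and 6 lower in op, which is close to the 18.7% of all tested probes. Their median log2 difference was -0.076. The 2 higher probes were those of the EST Ka01643 of PEBP1, homologous to the Raf kinase inhibitor protein, which in human cells holds back the step above MEK1. Ka01643_426 read 4.35 and 4.02 in op, against 3.23 and 3.27 in wild type, and its log2 difference was 0.94 (SE 0.18, limma adjusted p = 0.123). Ka01643_568 had 1.09 (SE 0.24, limma adjusted p = 0.143). One more probe named PEBP1, Ka01707_918 on another EST, had 0.018, so that the name alone does not give a direction. The 6 lower probes were pairs of RSU1, a suppressor of Ras signaling, with -0.55 and -0.57, CAP2, an actin-binding protein, with -0.47 and -0.45, and IBTK, an inhibitor of a tyrosine kinase, with -0.44 and -0.42.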

How the data were processed

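Cy3-labeled testis RNA was put on 1-color arrays, which the authors read with Feature Extraction 9.5 (per the labels). The processed signal deposited for each spot is an intensity with the background subtracted. The deposited normalized values, made by the authors with GeneSpring GX 10.3, are on the log2 scale, and were used as an alternative. For each genotype the methods state n = 5 and, for screening, 2 samples on 1 slide, and 4 arrays were used here.

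From the processed signals, log2 values minus each array's 75th percentile were computed, without control spots and spots with an outlier flag. A linear model of limma 3.58.1 (lmFit, then eBayes; R 4.3.3) compared op with wild type on 30376 probes, with two-sided p-values adjusted after Benjamini-Hochberg and a threshold of 0.05. The procedure was tested on simulated data. The number of arrays limits the precision: with 2 per genotype, the smallest p of an exact permutation test is 0.333. A comparison of replicate numbers found a correlation of -0.030 between same-numbered deviations over all tested probes. The labels give no pairing, and this correlation cannot exclude a pairing that moves only some probes.

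The members and lists were chosen with earlier results of these data known. G protein was matched as whole words. Matched as letters it also takes in every binding protein, 121 rows in place of 47, which was an alternative. Values per array are printed for MAP2K1 and MAP4K3, for members with an unadjusted p under 0.05 and for the largest difference in each role, and GNB1 was added after its values were seen. For PEBP1, RSU1, CAP2 and IBTK of the other list, the probes with an unadjusted p under 0.05 were named after their values were seen. A list of gut digestive enzymes, with 14 of 19 probes tested, had 1 higher and 4 lower in op at an unadjusted p under 0.05, and summed to 5.14 to 6.51 in op and 6.56 to 6.80 in wild type. Over all tested probes, 10.6% were higher and 8.04% lower in op at that threshold. The alternatives were normexp background correction (on the median spot signal, since the mean was not used here, with an offset of 50), quantile, median and no scaling, the authors' normalized values, no filter or a stricter filter on dim probes, a trend and robust prior, array weights, a replicate block, the methods' t-test and leaving out each array. No probe sequences were used. A result on 1 member that was not tested is not reported here. Names came by human homology, and the silkworm gene names P38mapk, Erk, Mek and ask1 from RefSeq's gene table (assembly ASM3026992v2).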

Additional observations from a re-analysis of the deposited data

How the results depend on the processing

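The count of all probes past an adjusted p of 0.05 in limma, 96 with 44.8% of them higher in op, was 414 with normexp (72.7% higher), 15 with quantile normalization (33.3%), 45 with no scaling (26.7%), 54 with probes well above background on all 4 arrays (57.4%), 0 with no filter (5133 at an unadjusted p under 0.05), 464 with a trend and robust prior (66.8%), 715 with the replicate block (75.7%) and 0 by the methods' t-test (4213 unadjusted). It was 101 with array weights (55.4% higher), and 33 to 2413 when 1 array was left out. The count of members was 0 to 2 when 1 array was left out, and 0 in every other setting. Those members were MAP2K1 Ka00295_468 and PPP2R4 Ka02671_543, without op replicate 2, in a fit that left 1 op array. That fit also called many more of all probes than the main fit, and did not call the second probe of either EST. The members' count at an unadjusted p under 0.05, 11, or 25.0% beside 18.7% of all probes, was 4 with no scaling (9.09% beside 13.4%), 5 with the replicate block (11.4% beside 15.7%), 20 of 116 with G protein matched as letters (17.2% beside 18.7%), and 0 to 20 when 1 array was left out. The members' share was thus below that of all probes in those 3 settings, and also when either wild-type array was left out. A lone array was taken to vary like the other genotype. The block changed no member's call after adjustment, and the labels give the samples of a block only a shared number. The members' median difference, -0.054, was 0.020 with normexp, -0.13 with quantile normalization, -0.15 with the shift to the median and -0.15 with no scaling, where the median over all probes was 0.051, -0.032, -0.063 and -0.065. It was also -0.10 with probes above background on all 4 arrays, -0.016 with no filter, -0.030 without wild type replicate 1 and -0.0039 with the reading as letters. YWHAZ Ka00780_625 turned from 0.15 to -0.22 without op replicate 1, and ran up to 0.51 without op replicate 2. Over the 15 settings, 33 tested members kept their sign and 11 did not, of which the largest difference was 0.18 in size. The causes of these shifts were not tested.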
